A study of Mus musculus with 64 samples.

Results

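β-Catenin binding was compared between both low-SOX2 states of the series, SOX2-OFF cells and caudal epiblast-like cells (CEpiLC). The libraries were chosen by target and condition alone, namely all 3 β-catenin ChIP-seq libraries of SOX2-OFF and all 3 of CEpiLC, which are 6 of the 64 samples of the series. CEpiLC came from mouse embryonic stem cells labelled wild-type, strain HM1 (129), and received no doxycycline. Per the methods of the study, this control is the HM1 TetON line, the engineered parent of the SOX2-OFF cells, so that both states carry the rtTA activator at Rosa26. SOX2-OFF cells carried the genotype Sox2-/- on that line and a doxycycline-inducible Sox2 transgene placed at Hprt. They came from picked clones, and doxycycline was removed when differentiation began. Both were grown in N2B27 with bFGF and LGK974, a blocker of WNT secretion, then also with the GSK3 inhibitor CHIR99021, and both were fixed at 72 h. The SOX2-OFF cells differ from this control in the transgene, the loss of endogenous Sox2, cloning and earlier doxycycline, so differences of genotype, of line and of residual SOX2 protein cannot be told apart here.

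β-Catenin is the nuclear carrier of the canonical WNT signal. It has no DNA-binding domain of its own and reaches chromatin mainly through the TCF/LEF family (TCF7, LEF1, TCF7L1 and TCF7L2), which recognises CTTTGAA or CTTTGAT. In the caudal epiblast of the embryo, WNT with FGF maintains Cdx and Hox genes and the T gene, whereas in naive pluripotent cells β-catenin also meets TCF7L1 and the pluripotency network. SOX2, an HMG-box factor like the TCF/LEF proteins, marks pluripotent and neural cells.

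The values are peak lists that the authors called separately in each library, and they hold no read counts, so that depth is unknown. The lists held 415244, 3423 and 32581 peaks in SOX2-OFF replicates 1, 2 and 3, and 20453, 15201 and 10930 peaks in CEpiLC replicates 1, 2 and 3. On the log10 scale this was 4.56 ± 1.04 (SD, n = 3) against 4.18 ± 0.136 (SD, n = 3), a difference of 0.378 with a two-sided exact permutation p of 0.7. Without SOX2-OFF replicate 1 the difference was −0.153. Unless full lists are named, β-catenin libraries were compared in equal-length lists of the 3423 peaks with the highest deposited −log10 p-value. Rank 1 is the strongest peak, and ranks beyond 3423 come from the full lists. SOX2-OFF replicate 2 enters with its whole list. SOX2-OFF replicate 1 had 7, 5 and 5 of its listed peaks over coding exons of Tfap2a, Tfap2c and Tcf7l1, up to rank 24, against 0 in SOX2-OFF replicates 2 and 3 and a single Tcf7l1 peak (rank 2448) in CEpiLC replicate 1. The part of these exon peaks in other results was not tested, and values without replicate 1 are given below.

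The first 3 SOX2-OFF and first 2 CEpiLC sites by worst rank are shown as sequence, with 1 site each from the Meis3 and Nanog loci, because they carry the comparison that follows. A site here is the merged interval of overlapping peaks of the 6 lists. A SOX2-OFF site had a peak in all 3 SOX2-OFF lists and in no CEpiLC list, and a CEpiLC site the reverse. Each line gives 201 bases of the forward strand of GRCm38 (mm10, the C57BL/6J reference, from the RefSeq assembly) centred on the strongest summit. Capitals mark matches, on either strand, to any of 7 short patterns. The TCF pattern was CTTTGAA, with CTTTGAT as its other accepted form. The SOX pattern of HMG-box factors was CATTGT, with CTTTGT as its other accepted form. The CDX pattern of caudal homeodomain factors was TTTATGG, with TTTATTG as its other accepted form. The T-box pattern, which Brachyury and Eomes recognise, was GGTGTG. The FOXH1 pattern, named for the forkhead partner of the Nodal pathway, was TGTGGATT. The GATA pattern of that zinc-finger family was AGATAA. The OCT pattern of octamer-binding factors was ATGCAAAT. No pattern contains another. A match describes these letters and is no evidence of binding by a factor.
SOX2-OFF site near Ttc29, chr8:78068311-78068511, forward strand: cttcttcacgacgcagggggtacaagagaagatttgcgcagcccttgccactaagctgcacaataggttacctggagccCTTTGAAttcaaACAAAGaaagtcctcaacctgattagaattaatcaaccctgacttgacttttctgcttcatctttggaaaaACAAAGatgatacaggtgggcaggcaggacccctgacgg
SOX2-OFF site near Mkln1, chr6:31240075-31240275, forward strand: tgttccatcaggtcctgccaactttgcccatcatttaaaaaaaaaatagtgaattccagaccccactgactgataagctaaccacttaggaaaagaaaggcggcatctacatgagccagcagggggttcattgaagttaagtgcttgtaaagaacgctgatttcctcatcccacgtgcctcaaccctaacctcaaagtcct
SOX2-OFF site near Pdpn, chr4:143302036-143302236, forward strand: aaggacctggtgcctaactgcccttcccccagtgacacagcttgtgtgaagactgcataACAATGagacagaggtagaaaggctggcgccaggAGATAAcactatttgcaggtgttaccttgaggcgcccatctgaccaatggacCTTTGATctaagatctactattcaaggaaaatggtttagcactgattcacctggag
CEpiLC site upstream of Hoxb4, chr11:96316402-96316602, forward strand: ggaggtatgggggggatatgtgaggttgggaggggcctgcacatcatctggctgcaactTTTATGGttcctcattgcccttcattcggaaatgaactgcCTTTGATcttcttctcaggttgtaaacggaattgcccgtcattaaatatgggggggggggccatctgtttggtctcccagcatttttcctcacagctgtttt
CEpiLC site near Gm525, chr11:89107546-89107746, forward strand: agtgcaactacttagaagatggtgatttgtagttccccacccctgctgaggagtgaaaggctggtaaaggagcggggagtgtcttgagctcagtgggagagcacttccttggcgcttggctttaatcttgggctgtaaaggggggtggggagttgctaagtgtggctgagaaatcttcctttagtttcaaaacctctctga
CEpiLC site upstream of Meis3, chr7:16174113-16174313, forward strand: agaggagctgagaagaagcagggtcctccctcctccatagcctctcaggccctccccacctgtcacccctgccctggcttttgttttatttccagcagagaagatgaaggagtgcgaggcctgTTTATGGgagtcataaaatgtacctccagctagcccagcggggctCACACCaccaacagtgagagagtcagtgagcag
SOX2-OFF site upstream of Nanog, chr6:122703814-122704014, forward strand: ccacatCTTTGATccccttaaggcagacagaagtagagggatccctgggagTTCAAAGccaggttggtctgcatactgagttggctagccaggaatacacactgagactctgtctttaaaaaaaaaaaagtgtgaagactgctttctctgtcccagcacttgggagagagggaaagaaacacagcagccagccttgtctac
The 2 SOX2-OFF sites near Ttc29 and Pdpn and the CEpiLC site upstream of Hoxb4 each held a TCF pattern, and the Nanog site held 2. A CDX pattern occurred in the Hoxb4 and Meis3 windows and in none of the other 5. The windows near Mkln1 and Gm525 held none of the 7 patterns, which says only that these letters are absent within 100 bp of the summit.

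The 6 lists merged into 7309 sites. A peak was present in all 6 libraries at 1202 of them. At 203 sites all 3 SOX2-OFF libraries and no CEpiLC library had a peak (2.78% of sites), and at 299 sites the reverse held (4.09% of sites); these are called SOX2-OFF sites and CEpiLC sites below. A single library accounted for 2933 sites, and SOX2-OFF replicate 2 alone for 1058 of them. Of the sites with peaks in all 3 CEpiLC libraries and in 2 of 3 SOX2-OFF libraries, 336 lacked SOX2-OFF replicate 2, 56 lacked replicate 1 and 40 lacked replicate 3. Without SOX2-OFF replicate 1 there were 339 SOX2-OFF sites and without SOX2-OFF replicate 2 there were 412, while leaving out CEpiLC replicate 3 gave 506 CEpiLC sites.

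**Figure D1:**
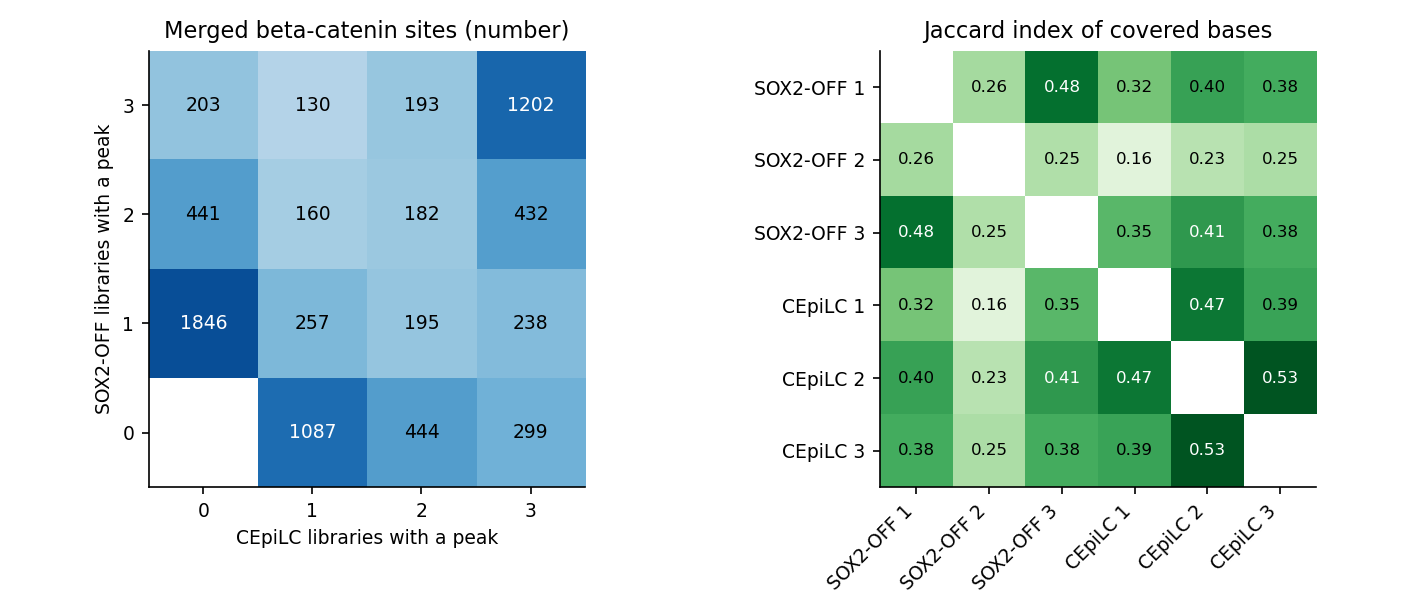
Left, merged β-catenin sites by the number of SOX2-OFF libraries (vertical axis) and CEpiLC libraries (horizontal axis) with a peak, among the 3423 strongest peaks of each library; darker cells hold more sites. Right, Jaccard index (shared bases over the union) for each pair of the 6 libraries; the lowest values all involve SOX2-OFF replicate 2.

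Absence from a list of 3423 peaks was seldom absence of any peak. Of the 299 CEpiLC sites, 88.3% had a weaker peak somewhere in the full list of SOX2-OFF replicate 1 (median rank 9770) and 86.3% in that of replicate 3 (median rank 6006), but 0% in replicate 2, whose list is used whole. Of the 203 SOX2-OFF sites, 69.5%, 63.1% and 48.3% had a weaker peak in the full lists of CEpiLC replicates 1, 2 and 3 (median ranks 7176, 5867 and 5422). Where no peak of any strength was allowed in the other state, 37 SOX2-OFF sites and 16 CEpiLC sites were left. The classes therefore describe strong against weak peaks for most members.

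Pairs of libraries overlapped by a mean Jaccard index of 0.398 within a state and 0.322 between states. The difference of 0.0765 had an exact one-sided permutation p of 0.1, the smallest this design allows. It was 0.0379 without CEpiLC replicate 1 (exact p = 0.4), 0.0391 without CEpiLC replicate 2 (exact p = 0.3) and 0.123 without SOX2-OFF replicate 3. CEpiLC libraries resembled each other more (mean 0.465) than SOX2-OFF libraries did (mean 0.332). SOX2-OFF replicate 2 reached 0.255 with its own state and 0.217 with CEpiLC. For SOX2-OFF replicate 1 these means were 0.374 and 0.366. SOX2-OFF replicate 3 was closer to CEpiLC (0.382) than to its own state (0.366). SOX2-OFF replicates 1 and 3 overlapped each other by 0.485, and each CEpiLC library by 0.323 to 0.414. All 6 libraries were further from SOX2-ON, the same line kept in doxycycline (0.175 to 0.214), and furthest from naive embryonic stem cells in 2i medium (0.112 to 0.153).

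The strongest CEpiLC site lay 1.76 kb upstream of Hoxb4, a Hox gene of the hindbrain and anterior trunk, at chr11:96315808-96317055 between genes. It ranked 27, 136 and 321 in the CEpiLC libraries with deposited folds over local background of 55.2, 52.8 and 30.1. In SOX2-OFF replicate 1 it ranked 64001 with a fold of 4.30, and SOX2-OFF replicates 2 and 3 listed no peak there. A second site inside Hoxb4 (chr11:96318760-96320485, intron) ranked 137, 476 and 605 in CEpiLC, 20355 and 13597 in SOX2-OFF replicates 1 and 3, and was not listed in replicate 2. The definition of a CEpiLC site puts the 3 CEpiLC ranks ahead of every SOX2-OFF rank at both Hoxb4 sites.

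Meis3 encodes a TALE homeodomain cofactor of Hox proteins. The site 1.06 kb upstream of its start, at chr7:16173928-16174814 between genes, ranked 248, 524 and 656 in CEpiLC, with folds of 38.4, 31.0 and 23.2. No SOX2-OFF library had a peak of any strength at that site. Elsewhere in the Meis3 locus, SOX2-OFF replicates 1 and 3 had peaks at ranks 18200 and 30377.

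Hes7 encodes an oscillating repressor of the segmentation clock and carried a CEpiLC site and a shared site. The site 1.31 kb upstream (chr11:69118789-69119323) ranked 665, 575 and 537 in CEpiLC and 3902 and 5325 in SOX2-OFF replicates 1 and 3, with no peak in replicate 2. Its neighbour 2.32 kb upstream (chr11:69117623-69118553) was present in all 6 libraries, at ranks 117, 339 and 153 in SOX2-OFF and at ranks 31, 29 and 14 in CEpiLC. At the shared site the groups did not overlap, and CEpiLC was ahead. At the CEpiLC site that order follows from the definition. The 8 leading CEpiLC sites also included those near Gm525 (33.8 kb from its start, ranks 145, 327 and 432), 28.4 kb upstream of Gtf3a (72, 334 and 642) and at the promoter of Tcf20 (246, 580 and 683).

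The leading SOX2-OFF sites were mostly far from gene starts. The first, 145 kb upstream of Ttc29 at chr8:78067959-78069375, ranked 395, 480 and 220 in SOX2-OFF, 12686 and 14479 in CEpiLC replicates 1 and 2, and was absent from CEpiLC replicate 3. The site 2.57 kb upstream of Pdpn, which encodes podoplanin, a membrane glycoprotein, lay at chr4:143301829-143302918 and ranked 763, 370 and 614 in SOX2-OFF and 7477, 4151 and 5258 in CEpiLC. The site 93.7 kb from the start of Nmur2, a neuromedin receptor gene, ranked 973, 172 and 228 in SOX2-OFF and 10767, 5463 and 5292 in CEpiLC. The definition of a SOX2-OFF site puts each SOX2-OFF library ahead of each CEpiLC library in all 3 cases. The remaining leading sites were nearest to Mkln1, Slc7a13, 4933407L21Rik, Rmdn2 and Vmn1r88, with worst SOX2-OFF ranks from 567 to 963. All 3 TCF7L1 libraries of SOX2-OFF, which the choice of sites did not use, had a peak at each of these 8 sites. These 8 lead their class by rank, and all 3 libraries had a peak at 39 of all 203 SOX2-OFF sites. Taken singly, the TCF7L1 libraries covered 36.5%, 48.8% and 46.8% of the SOX2-OFF sites. They covered more of the sites shared by all β-catenin libraries of both states, at 68.7%, 68.6% and 76.7%.

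Of the 1202 sites shared by all 6 libraries, all 3 SOX2-OFF ranks were ahead of all 3 CEpiLC ranks at 246 (20.5%), and the reverse held at 178 (14.8%). Ranks overlapped at the other 778. Without SOX2-OFF replicate 2 the number ahead in CEpiLC was 359. The widest gap in favour of SOX2-OFF was 3.74 kb upstream of Map10 (chr8:125665613-125666587), with ranks of 68, 16 and 41 against 575, 604 and 629. The widest in favour of CEpiLC was at chr9:115028950-115030112, nearest to Osbpl10, with ranks of 891, 3013 and 772 against 22, 36 and 58.

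Gene loci were then examined, each taken as the gene body with 10 kb upstream. Of 21938 protein-coding loci, 79 had a peak in all SOX2-OFF and no CEpiLC library (0.360%), 132 the reverse (0.602%) and 695 a peak in all 6 libraries (3.17%), and 18697 had none. Leaving out SOX2-OFF replicate 1, 2 or 3 gave 122, 154 and 126 SOX2-OFF loci, and leaving out CEpiLC replicate 1 or 3 gave 220 and 208 CEpiLC loci. Loci overlap, so that 1 site can count for several neighbouring genes. The gene lists below were chosen with earlier results of these data known, and their counts are descriptions.

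Hox genes, which specify position along the body axis, stood on the CEpiLC side. Of 39 Hox loci, 8 were called for CEpiLC and 0 for SOX2-OFF, and 2 had a peak in all 6 libraries. Over all protein-coding loci these shares were 0.602%, 0.360% and 3.17%, so a count of 0 for SOX2-OFF is near its share. By paralogue number, the CEpiLC calls were 3 of 12 loci among Hox1 to Hox4 (Hoxa3, Hoxa4 and Hoxb4), 4 of 15 among Hox5 to Hox9 (Hoxb6, Hoxb7, Hoxb8 and Hoxb9) and 1 of 12 among Hox10 to Hox13 (Hoxc10). Neighbouring Hox loci overlap, and no CEpiLC site was nearest to the start of Hoxa3, Hoxb6 or Hoxb7, so these calls are not separate sites. Each setting that left out 1 library or 1 replicate number gave 8 to 14 Hox loci for CEpiLC and 0 for SOX2-OFF. When all deposited peaks were used no Hox locus was called in either direction; SOX2-OFF replicate 1 then enters with 415244 peaks.

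Counted as sites rather than loci, the 4 Hox clusters with 10 kb on each side held 35 merged sites. Of these, 10 were CEpiLC sites, 0 were SOX2-OFF sites and 2 were present in all 6 libraries. Among all 7309 merged sites, 4.09% were CEpiLC sites, 2.78% were SOX2-OFF sites and 1202 were present in all 6. With 35 sites, a count of 0 SOX2-OFF sites lies close to that share. The libraries had peaks at 9, 4 and 5 of the 35 in SOX2-OFF and at 33, 22 and 20 in CEpiLC, and the groups did not overlap. The Hoxb cluster (chr11:96261457-96378256) held 16 sites, with peaks at 5, 1 and 3 of them in SOX2-OFF and at 14, 10 and 9 in CEpiLC. The Hoxa cluster (chr6:52145590-52270880) held 10 sites, at 3, 1 and 1 against 10, 7 and 6. The Hoxc cluster (chr15:102911103-103046852) held 6 sites, at 0, 1 and 0 against 6, 4 and 3. The Hoxd cluster (chr2:74658310-74775142) held 3 sites, and only there did the groups overlap, at 1, 1 and 1 against 3, 1 and 2.

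Within the Hoxb cluster the trunk Hox genes Hoxb9 and Hoxb8 had their CEpiLC sites at the promoters. The Hoxb9 site (chr11:96270851-96273024) ranked 513, 817 and 2016 in CEpiLC, against 43739 and 8483 in SOX2-OFF replicates 1 and 3 and no peak in replicate 2. The Hoxb8 site (chr11:96283044-96285823) ranked 880, 3175 and 2803 in CEpiLC, was at 66425 in SOX2-OFF replicate 1 and was not listed in SOX2-OFF replicates 2 and 3. At the Hoxb1 promoter, by contrast, SOX2-OFF replicates 1 and 3 also had peaks in the equal-length lists, at ranks 1052 and 1324, behind 163, 128 and 211 in CEpiLC. The site 2.64 kb upstream of Hoxd1 (chr2:74759837-74760748) was shared by all 6 libraries, at 251, 108 and 295 in SOX2-OFF and 55, 53 and 59 in CEpiLC. At both anterior genes every CEpiLC rank was ahead of every SOX2-OFF rank.

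**Figure D2:**
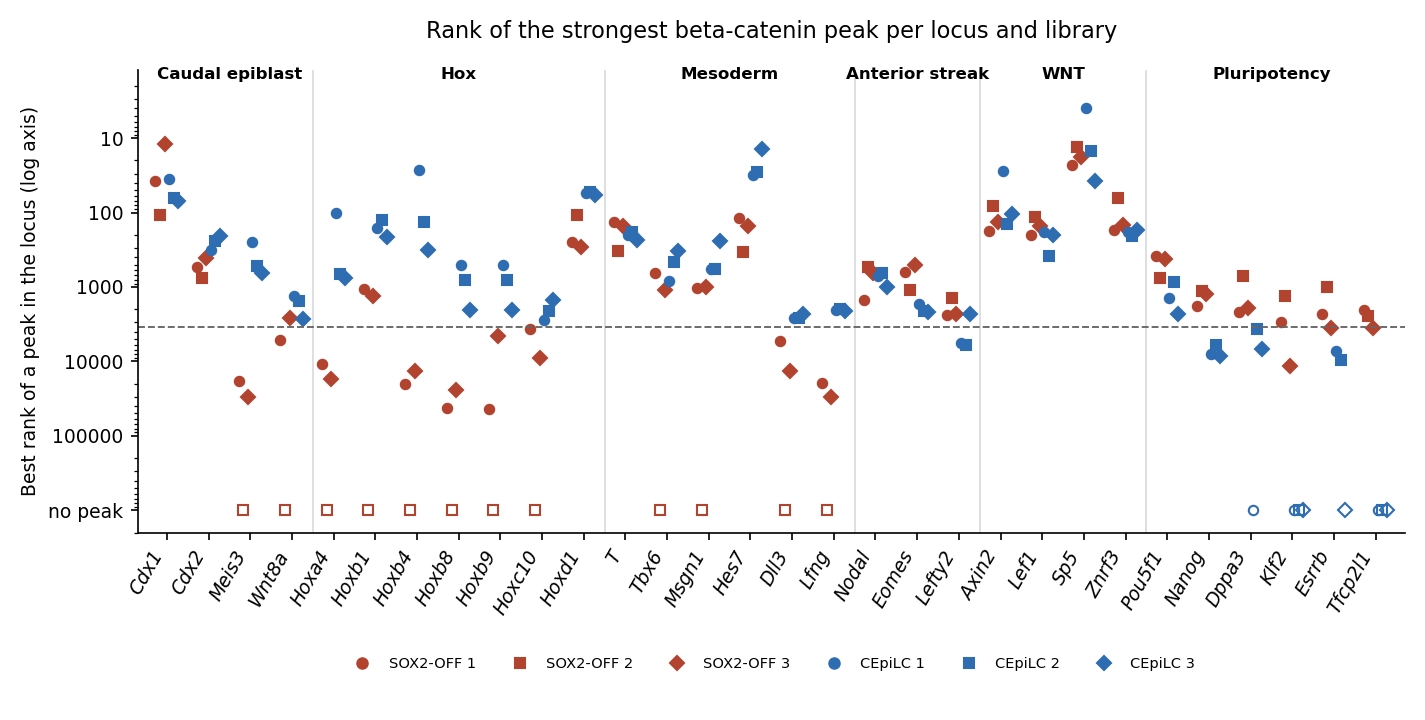
Best rank of a β-catenin peak in the gene body plus 10 kb upstream of 30 named loci, by library (log axis, rank 1 is the strongest peak; open symbols mark libraries with no peak in their full list). The dashed line is the length of the equal-length lists, 3423. Hoxb4 ranks of 27, 136 and 321 in CEpiLC stand above the line while those of SOX2-OFF lie below it, and the Nanog locus shows the reverse. The rule for a called locus requires this of both.

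Among 14 genes of the caudal epiblast, Meis3 was the single locus called for CEpiLC, 0 were called for SOX2-OFF and 4 (Cdx1, Cdx2, Wnt5b and Evx1) had peaks in all 6 libraries. The shares over all loci were 0.602%, 0.360% and 3.17%. The Cdx genes encode homeodomain activators of Hox genes. At Cdx1 the best ranks were 38, 109 and 12 in SOX2-OFF and 35, 64 and 69 in CEpiLC, and the groups overlapped. At Cdx2 the site 2.22 kb inside the gene (chr5:147303984-147305620, intron) ranked 535, 758 and 404 in SOX2-OFF and 321, 245 and 208 in CEpiLC, which did not overlap. A second site of the Cdx2 locus (chr5:147315566-147316049), nearest to the start of Urad, was a CEpiLC site, at ranks 1170, 1405 and 1809, against 314762 and 6019 in SOX2-OFF replicates 1 and 3. At Cdx4, 1 CEpiLC library had a peak in the equal-length lists. Fgf8, the FGF ligand of the caudal epiblast, had a peak in SOX2-OFF replicate 3 alone, and Wnt3a had none in any of the 6.

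Of 14 genes of the primitive streak and paraxial mesoderm, Dll3 and Lfng were called for CEpiLC, 0 for SOX2-OFF, and T and Hes7 had peaks in all 6 libraries. Over all loci the shares were 0.602%, 0.360% and 3.17%. Dll3 is a Notch ligand and Lfng a glycosyltransferase that modifies Notch, both of the segmentation clock. The Dll3 promoter site (chr7:28302212-28302627) ranked 2629, 2650 and 2288 in CEpiLC and 5250 and 13397 in SOX2-OFF replicates 1 and 3. The Lfng promoter site (chr5:140606300-140606984) ranked 2027, 1986 and 2092 in CEpiLC, 262589 in SOX2-OFF replicate 1 and was not listed in the other two. T, which encodes the T-box factor Brachyury, gave overlapping ranks at its promoter of 133, 330 and 150 in SOX2-OFF and 201, 183 and 236 in CEpiLC. Tbx6 and Msgn1, factors of presomitic mesoderm, lacked a peak only in SOX2-OFF replicate 2. Ranks at Tbx6 were 652 and 1099 in SOX2-OFF replicates 1 and 3 and 826, 463 and 327 in CEpiLC.

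None of the 17 anterior streak and mesendoderm loci was called in either direction, although single sites differed at Lefty2 and Eomes. The site 4.33 kb upstream of Lefty2, a Nodal antagonist, at chr1:180888497-180889263, was a SOX2-OFF site with ranks of 2364, 1415 and 2302, against 5631 and 7951 in CEpiLC replicates 1 and 2. A distal site 9.86 kb upstream of Eomes, a T-box gene of mesendoderm, was shared and ranked ahead in SOX2-OFF (637, 1105 and 512 against 1706, 2130 and 2174). The Nodal locus gave overlapping best ranks of 1493, 532 and 647 against 721, 655 and 1011. A stronger site nearest to Nodal, 11.8 kb upstream and so outside the locus window (chr10:61405676-61407085), was shared and ranked ahead in SOX2-OFF, at 121, 32 and 43 against 533, 268 and 275. Distant sites also went the other way. A site 88.1 kb upstream of Eomes was shared and ranked ahead in CEpiLC, at 860, 1192 and 1351 against 796, 639 and 799. Foxa2 was nearest to a CEpiLC site 140 kb from its start (ranks 228, 719 and 1859). A shared site 5.01 kb from the Foxa2 start ranked ahead in SOX2-OFF, at 762, 704 and 589 against 1007, 961 and 1137. Mixl1 had peaks in 2 libraries of each state, and Gsc in none.

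WNT feedback genes had peaks in both states. Of 17 loci, 10 had a peak in all 6 libraries and 0 were called in either direction, against 3.17% of all loci with a peak in all 6. Sp5, a WNT-induced zinc-finger repressor, held some of the strongest peaks of every list, at ranks 23, 13 and 18 in SOX2-OFF and 4, 15 and 38 in CEpiLC. Axin2, a scaffold of the β-catenin destruction complex, ranked 179, 81 and 133 in SOX2-OFF and 28, 141 and 106 in CEpiLC. Lef1 ranked 199, 116 and 154 against 181, 387 and 200. The best ranks of both states overlapped at each of these 3 loci. At a second Sp5 site, 2.71 kb upstream (chr2:70471600-70473061), CEpiLC was ahead, with ranks of 165, 192 and 172 against 470, 597 and 235. Znrf3, a ubiquitin ligase for WNT receptors, held shared sites of both directions. Its promoter site (chr11:5444103-5445126) ranked 383, 565 and 501 in SOX2-OFF and 184, 299 and 265 in CEpiLC. The site 31.0 kb inside the gene (chr11:5413250-5414286) ranked 170, 176 and 258 in SOX2-OFF and 561, 288 and 562 in CEpiLC. The Nkd1 locus lacked a peak only in SOX2-OFF replicate 2. Outside that window, a site nearest to Nkd1 (chr8:88603503-88604948) was shared and ranked ahead in CEpiLC, at 500, 537 and 641 against 253, 472 and 390. A CEpiLC site also lay 26.0 kb upstream of the Nkd1 start, at ranks 311, 1689 and 2097. Dkk1, a secreted WNT antagonist, had a peak in all 3 SOX2-OFF libraries and in CEpiLC replicate 2 alone, at 854, 3246 and 1052 against 4924, 2541 and 4409.

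The calls in the pluripotency list were on the SOX2-OFF side, while shared sites went both ways. Of 13 loci, Nanog and Dppa3 were called for SOX2-OFF (0.360% of all loci were), 0 for CEpiLC, and Pou5f1 and Klf4 had peaks in all 6 libraries. The Nanog site 3.58 kb upstream (chr6:122703458-122704076) ranked 2091, 1129 and 1232 in SOX2-OFF, 14281 and 9767 in CEpiLC replicates 2 and 3 and was not listed in CEpiLC replicate 1. The Dppa3 site (chr6:122624459-122625059) ranked 2150, 707 and 1909 in SOX2-OFF. It was at 3711 in CEpiLC replicate 2, just outside the list, at 6909 in CEpiLC replicate 3 and not listed in CEpiLC replicate 1. The Pou5f1 promoter site (chr17:35504720-35505635) was shared and ranked ahead in SOX2-OFF, at 380, 759 and 417 against 1422, 859 and 2293. The Klf4 promoter site (chr4:55532219-55532888) was shared and ranked ahead in CEpiLC, at 960, 816 and 1277 against 465, 783 and 509. Prdm14 had a peak in 3 CEpiLC lists and in SOX2-OFF replicates 1 and 3, at 2131 and 1673 against 1090, 1530 and 1380.

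Klf2, Esrrb and Tfcp2l1, factors of the naive state, had peaks in SOX2-OFF replicates 1 and 2 and in no CEpiLC library of the equal-length lists. Klf2 ranked 3001, 1334 and 11640 in SOX2-OFF, and no CEpiLC library had a peak of any strength in that locus. In SOX2-ON and naive cells the Klf2 locus ranked between 128 and 433. The Sox2 locus had no peak in the equal-length lists of the 6 libraries. Outside that window, a site nearest to Sox2 (chr3:34664916-34665726) was shared and ranked ahead in CEpiLC. Its ranks were 2998, 2398 and 2364 in SOX2-OFF and 1367, 1244 and 1280 in CEpiLC. The locus of Fgf5, an FGF of the formative epiblast, ranked ahead in SOX2-OFF, at 656, 640 and 659 against 4349, 1729 and 1591.

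**Figure D3:**
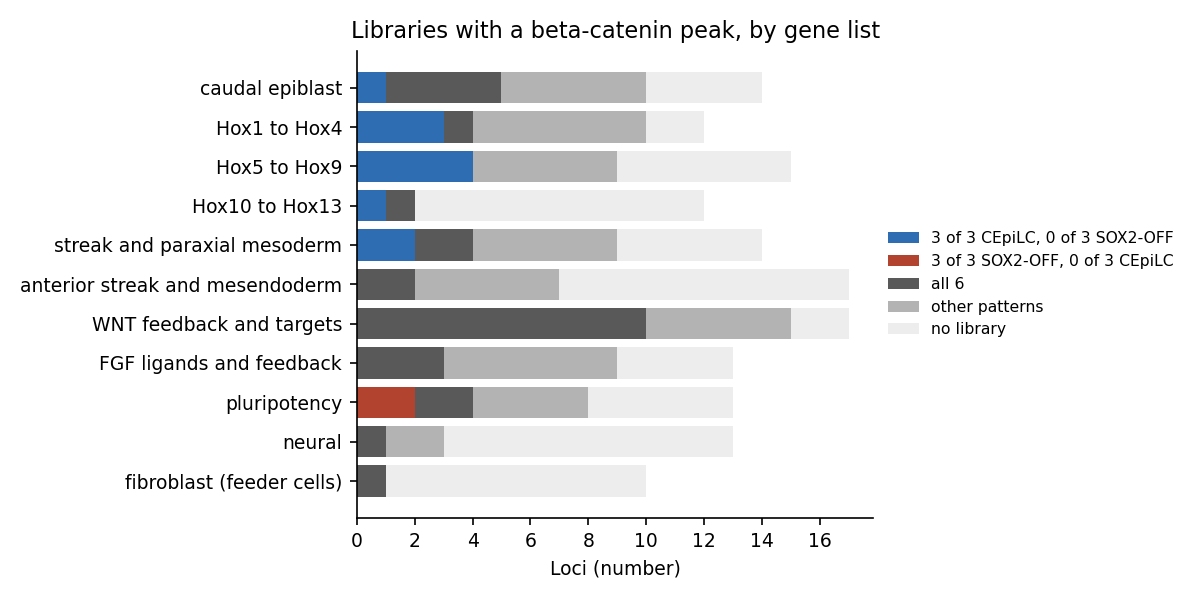
Number of loci in each gene list by the libraries with a β-catenin peak in the equal-length lists. Blue marks loci with peaks in 3 of 3 CEpiLC and 0 of 3 SOX2-OFF libraries, red the reverse; the 8 blue Hox loci and the 2 red pluripotency loci (Nanog and Dppa3) make up 10 of the 13 called members.

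The remaining lists held no called locus, beside 0.602% of all loci called for CEpiLC, 0.360% for SOX2-OFF and 3.17% with a peak in all 6 libraries. Of 13 FGF loci 3 had peaks in all 6 libraries (Dusp4, Etv4 and Il17rd), and of 13 neural loci 1 did (Nkx6-1). Among 10 genes of fibroblasts, which can be present as feeder cells, 9 had no peak in any library. The exception was Pdgfrb, whose locus overlaps that of Cdx1 and shares its peak.

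Promoters took a smaller part of the SOX2-OFF lists. Summits within 1 kb of a protein-coding start made up 7.71%, 6.84% and 6.34% of peaks in SOX2-OFF and 9.44%, 10.7% and 11.7% in CEpiLC. The means were 6.96% ± 0.695 and 10.6% ± 1.16 (SD, n = 3), and the groups did not overlap (exact permutation p = 0.1, two-sided, the smallest that 3 against 3 libraries allow). Of the SOX2-OFF sites 1.48% were at promoters, of the CEpiLC sites 12.7% and of the shared sites 7.65%. The median distance to a gene start was 32.2 kb for SOX2-OFF sites and 20.9 kb for CEpiLC sites. The median GC content within 100 bp of the summit was 47.3% and 50.7%, beside 49.8% for shared sites.

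The TCF pattern was far above background in both states. It occurred within 100 bp of the summit in 57.2% ± 5.74 of SOX2-OFF peaks and 54.8% ± 1.98 of CEpiLC peaks (SD, n = 3), against 8.11% to 9.11% of windows 5000 bp away. The difference of 2.34 percentage points had an exact permutation p of 0.5 (adjusted p = 0.583 over 7 patterns). SOX2-OFF replicate 2 was lowest, at 50.6%, and without it the difference was 5.61 points (exact p = 0.1). It was 1.17 without SOX2-OFF replicate 1, 0.234 without SOX2-OFF replicate 3 and 1.48 without CEpiLC replicate 1. The SOX pattern occurred in 33.0% ± 1.37 and 32.0% ± 1.8 of peaks (exact p = 0.7, adjusted p = 0.7), against 26.0% to 27.6% of background windows. Neither pattern separated the states.

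For 2 patterns the libraries of both states did not overlap. CDX patterns occurred in 4.0%, 3.97% and 3.89% of SOX2-OFF peaks and in 10.2%, 6.84% and 5.29% of CEpiLC peaks, a difference of −3.48 points, or −2.11 without CEpiLC replicate 1. Background windows held them at 7.33% to 8.03%, so that the SOX2-OFF lists and CEpiLC replicates 2 and 3 lay below background and CEpiLC replicate 1 above it. GATA patterns occurred in 17.3%, 16.8% and 18.7% of SOX2-OFF peaks and in 14.9%, 14.5% and 14.0% of CEpiLC peaks, a difference of 3.13 points, with 11.7% to 12.1% in background windows. Both had an exact permutation p of 0.1, the smallest possible, and an adjusted p of 0.35 over the 7 patterns. T-box, FOXH1 and OCT patterns overlapped between the states, with exact p of 0.5, 0.2 and 0.5 and adjusted p of 0.583, 0.467 and 0.583.

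**Figure D4:**
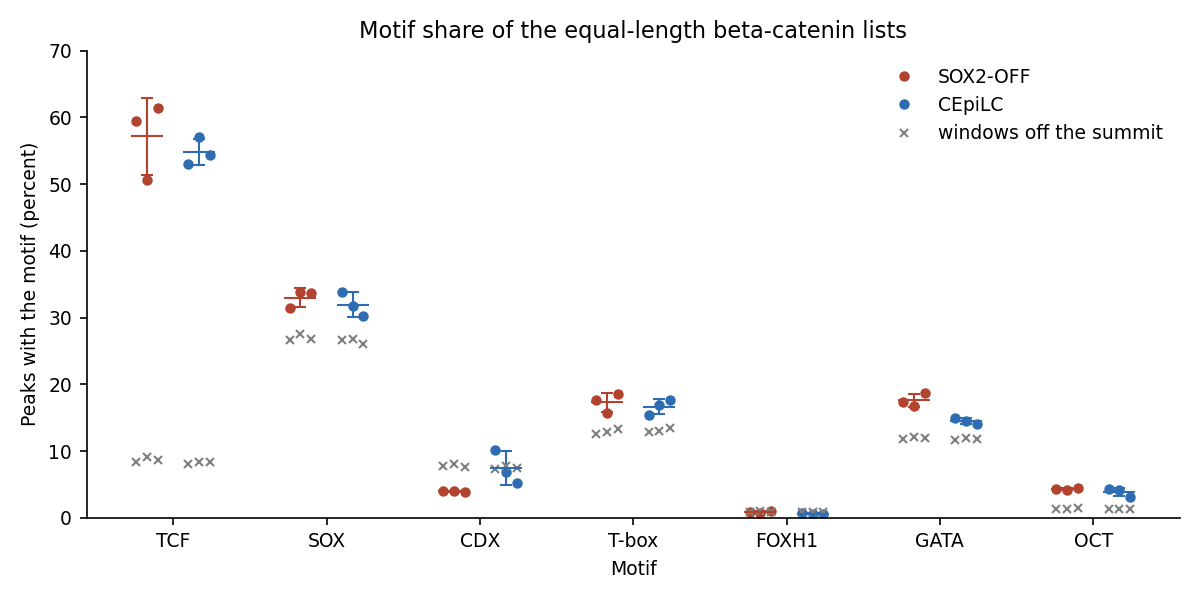
Percent of the 3423 strongest β-catenin peaks of each library with each pattern within 100 bp of the summit. Points are libraries, bars the mean ± SD (n = 3), crosses the windows 5000 bp away; CDX and GATA are the patterns whose SOX2-OFF and CEpiLC points do not overlap.

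The classes of sites differed in the same patterns, given here as a description because the classes were chosen on these lists. CDX patterns lay in 15.4% of CEpiLC sites, 5.91% of SOX2-OFF sites and 3.99% of shared sites, beside 6.84% of all merged sites. GATA patterns lay in 28.6% of SOX2-OFF sites, 10.0% of CEpiLC sites and 18.7% of shared sites, beside 15.1% of all merged sites. TCF patterns were most frequent in shared sites (69.2%), then in SOX2-OFF sites (63.1%) and CEpiLC sites (45.5%), beside 47.8% of all merged sites.

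Whether other proteins followed the same division was measured in the LEF1, TCF7L1, TCF7L2 and SOX2 libraries of both states, which had no part in choosing the sites. LEF1 and TCF7L2 act mostly as activators or switch proteins of the WNT pathway, and TCF7L1 mostly as a repressor. Each list was again shortened, to 4443 peaks for LEF1, 1628 for TCF7L1, 4134 for TCF7L2 and 20000 for SOX2. The site index of a library is the log2 odds that its list overlaps the SOX2-OFF sites minus the log2 odds for the CEpiLC sites, with 0.5 added to each count. It is above 0 where SOX2-OFF sites are favoured.

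For all 4 proteins the SOX2-OFF libraries had positive indexes and the CEpiLC libraries negative ones. The TCF7L1 index was 4.95, 5.03 and 7.45 in SOX2-OFF and −4.32, −1.85 and −1.18 in CEpiLC, a difference of 8.26. The TCF7L2 index was 2.73, 2.68 and 3.33 against −6.48, −3.63 and −5.61, a difference of 8.15. For LEF1 it was 1.78, 2.82 and 2.08 against −4.31, −2.91 and −3.05 (difference 5.65), and for SOX2 1.11, 0.98 and 1.92 against −2.95, −2.58 and −2.82 (difference 4.12). Each difference had an exact two-sided permutation p of 0.1, and an adjusted p of 0.1 over the 4 proteins. That is the smallest p of the design, and none passes 0.05. Whether libraries of different proteins with the same replicate number came from the same chromatin is not given in the sources used here.

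**Figure D5:**
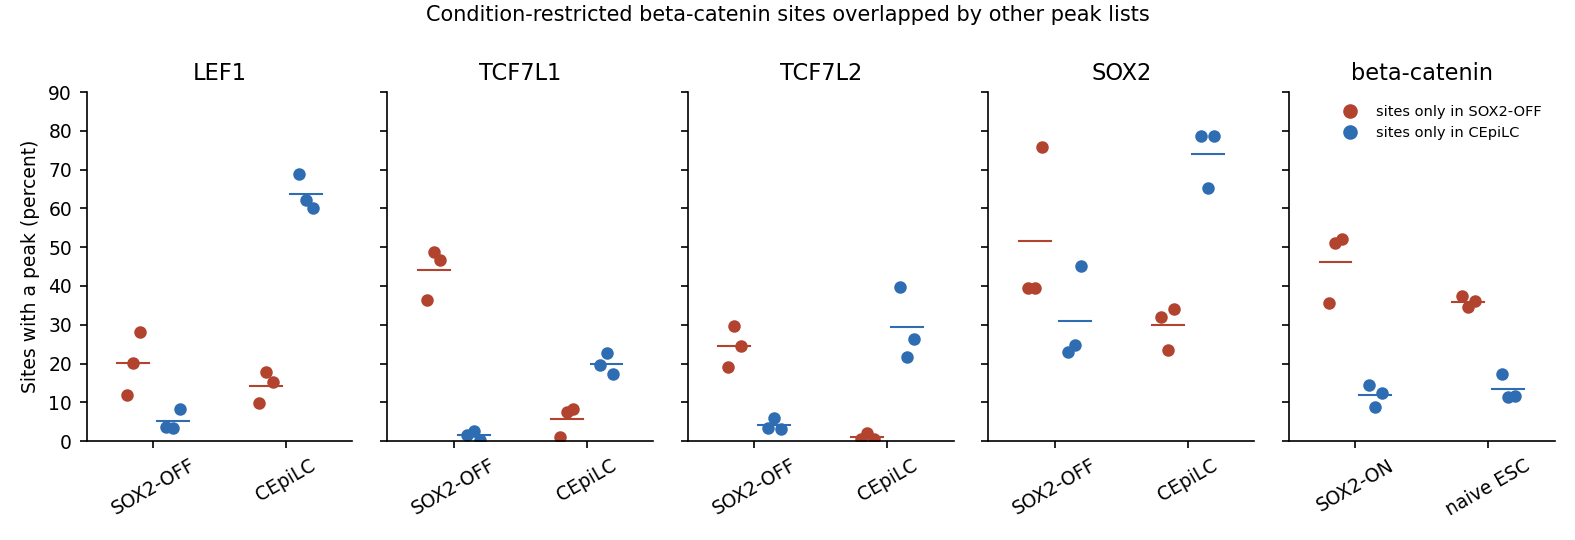
Percent of the 203 SOX2-OFF sites (red) and of the 299 CEpiLC sites (blue) overlapped by each library of the other proteins in both states, and by β-catenin libraries of SOX2-ON and naive embryonic stem cells. Points are libraries and lines the mean of 3; in the first 4 panels the colour that is higher changes between SOX2-OFF and CEpiLC.

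The proteins favoured each state unequally. LEF1 peaks of CEpiLC covered 68.9%, 62.2% and 60.2% of the CEpiLC sites, and LEF1 peaks of SOX2-OFF covered 3.68%, 3.34% and 8.36% of them. At the SOX2-OFF sites LEF1 was scarce in both, with 11.8%, 20.2% and 28.1% in SOX2-OFF and 9.85%, 17.7% and 15.3% in CEpiLC, which overlap. TCF7L1 peaks of SOX2-OFF covered 36.5%, 48.8% and 46.8% of the SOX2-OFF sites, and those of CEpiLC 0.985%, 7.39% and 8.37%. At the CEpiLC sites TCF7L1 covered 19.7%, 22.7% and 17.4% in CEpiLC and 1.67%, 2.68% and 0.334% in SOX2-OFF. TCF7L2 covered 19.2%, 29.6% and 24.6% of the SOX2-OFF sites in SOX2-OFF and 39.8%, 21.7% and 26.4% of the CEpiLC sites in CEpiLC. Of the shared sites, LEF1 covered 54.8%, 52.1% and 72.5% in SOX2-OFF and 87.3%, 93.0% and 89.9% in CEpiLC.

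In CEpiLC, SOX2 peaks covered 78.6%, 65.2% and 78.6% of the CEpiLC sites and 32.0%, 23.6% and 34.0% of the SOX2-OFF sites. In SOX2-OFF they covered 23.1%, 24.7% and 45.2% of the CEpiLC sites and 39.4%, 39.4% and 75.9% of the SOX2-OFF sites. The SOX2 lists of the Sox2-/- cells without doxycycline still held 56263, 375980 and 224107 peaks. Peak lists do not show how much SOX2 protein was left.

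Single Hox and Meis3 sites followed this division to different degrees. Presence and absence of a peak refer here to the shortened lists of each protein, and absence from these need not be absence from the full lists. At the Hoxb4 upstream site all 3 CEpiLC libraries of LEF1, TCF7L1, TCF7L2 and SOX2 had a peak, while in SOX2-OFF 1 LEF1 library had one and no library of the other proteins did. At the Meis3 site, CEpiLC had peaks in 3 LEF1, 2 TCF7L1, 1 TCF7L2 and 3 SOX2 libraries, and SOX2-OFF in 0 of each. LEF1 was present in 3 of 3 CEpiLC libraries at 7 of the 9 CEpiLC sites nearest to a Hox gene start. The exceptions were the Hoxb8 site, with LEF1 in 1 CEpiLC library and no TCF7L1 or TCF7L2 peak, and the Hoxc10 site, with LEF1 and TCF7L1 in no library of either state. SOX2 had peaks in 3 of 3 libraries of both states at the Hoxb9 and Hoxc10 sites. At the Nanog upstream site neither state had a TCF7L1 or TCF7L2 peak in the shortened lists, and SOX2 had peaks in 3 libraries of SOX2-OFF and 2 of CEpiLC.

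The β-catenin libraries of the high-SOX2 states show where else these sites are bound. SOX2-ON libraries covered 35.5%, 51.2% and 52.2% of the SOX2-OFF sites and 14.4%, 8.70% and 12.4% of the CEpiLC sites. Naive libraries covered 37.4%, 34.5% and 36.0% of the SOX2-OFF sites and 17.4%, 11.4% and 11.7% of the CEpiLC sites. The site index was 2.69 ± 0.894 in SOX2-ON and 1.86 ± 0.316 in naive cells (SD, n = 3), positive in 6 of 6 libraries. The difference between them of 0.827 had an exact two-sided permutation p of 0.3, and ranged from 0.214 to 1.25 with libraries left out. Of the 299 CEpiLC sites, 213 were in none of the 6 high-SOX2 lists and 9 in all 6. Of the 203 SOX2-OFF sites, 51 were in none and 30 in all 6. Of the 1202 sites shared by all 6 low-SOX2 libraries, 186 were in none and 361 in all 6. SOX2-ON libraries covered 64.4%, 64.2% and 70.9% of those shared sites, and naive libraries 50.2%, 43.8% and 45.6%, more than of the SOX2-OFF sites. The Dppa3 site was in all 6 high-SOX2 lists, and the upstream Hoxb4 site and the Meis3 site were in none. The upstream Nanog site was in 1 SOX2-ON list and in 0 naive lists.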

How the data were processed

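β-Catenin ChIP-seq of 3 SOX2-OFF and 3 CEpiLC libraries was analysed, with the LEF1, TCF7L1, TCF7L2 and SOX2 libraries of both states and the β-catenin libraries of SOX2-ON and naive cells. The authors aligned single-end reads to mm10 with BWA in the nf-core ChIP-seq pipeline and called narrow peaks with MACS2 in each library at the default q-value. The version of MACS2 and the input used for each library are not given in the sources used here. Per peak, the authors deposited a score, the fold over local background as a ratio, and the −log10 p-value and −log10 q-value. Other columns held positions.

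Peaks were ranked by −log10 p-value and each list was shortened to the shortest of its target over all 4 conditions (3423 for β-catenin), with an upper limit of 20000 peaks. The full lists are the comparison without such a filter. Peaks sharing at least 1 bp were merged. Coordinates fitted GRCm38, with 0 peaks past a chromosome end, and 53 peaks on unplaced sequences or other contigs were left out. Gene models were 21938 protein-coding genes of GENCODE M21 basic.

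Groups were compared by exact permutation over libraries (smallest two-sided p of 0.1 with 3 against 3) in Python 3.11.15 with numpy 2.4.6, pandas 2.3.3 and pysam 0.24.0, and p-values were adjusted by Benjamini-Hochberg within each family. No count test was possible, no p was computed across sites, and depth is unknown. Per the labels, replicates were separate biological samples. Whether same-numbered libraries of both states were prepared together is not given in the sources used here, and the main tests did not pair them. The functions were tested on simulated lists. The gene lists, named sites and genes were chosen with earlier results of these data known. Sites were named by a rule: per direction the 8 called sites with the best worst rank, the 4 shared sites with the widest gap in mean log10 rank (the widest is described), listed genes whose locus was called, and a set of genes of the study's subject. One leading CEpiLC site is not reported here. Lefty2, Dkk1, Fgf5, Esrrb, Tfcp2l1, Hoxb1, Hoxd1, Znrf3, Klf4, Prdm14, the second Sp5 site and the distal Nodal site were added after their values were seen. So were the Foxa2 sites, the farther Eomes site and the Sox2 and Nkd1 sites outside their locus windows. Alternatives covered list length, ranking, peak extent, windows, thresholds and left-out libraries.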

Additional observations from a re-analysis of the deposited data

How the results depend on the processing

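Of the 23 results recomputed, the direction of the following held in every alternative run: Jaccard index, promoter share, TCF, CDX and GATA shares, and the site indexes of LEF1, TCF7L1, TCF7L2 and SOX2. No p in them can fall below 0.1, so a kept direction says nothing of a threshold. With libraries or replicates left out, the Jaccard difference ran from 0.0379 to 0.123, the TCF difference from 0.0146 to 6.69 and the CDX difference from −4.55 to −2.11. Results reversed as follows. The difference in peak number ran from −0.153 to 0.891 with libraries left out, and was negative without SOX2-OFF replicate 1. SOX differences were −0.185 with 50 bp windows and −0.5 with 1000 peaks, and −0.175 to 2.75 with libraries left out. The T-box range was −0.117 to 1.59, with −0.00487 without SOX2-OFF replicate 3, and the OCT range −0.0146 to 0.687. FOXH1 gave −0.0667, and the SOX2-ON minus naive index −0.273, with 1000 peaks. The cause was not tested.

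Counts depended on list length and on the rule. With 1000 peaks there were 91 SOX2-OFF and 113 CEpiLC sites, 42 and 59 loci and 5 Hox loci for CEpiLC. With 2000 peaks there were 175 CEpiLC sites, 77 CEpiLC loci, 5 Hox loci, and 149 and 112 shared sites ranked ahead in SOX2-OFF and CEpiLC. All deposited peaks gave 2 CEpiLC loci and 0 Hox loci. Absence in full lists left 37 and 16 sites, and at least 2 of 3 libraries gave 644 and 743. Ranking by fold and the gene body alone each gave 5 Hox loci, and 50 kb upstream gave 132 and 224 loci. Leaving out replicates or libraries, which shortens the rule, gave 226 to 502 SOX2-OFF sites, 326 to 657 CEpiLC sites, 311 to 441 and 203 to 414 shared sites ahead, 86 to 196 and 157 to 286 loci, and 8 to 14 Hox loci for CEpiLC. Without replicate 1 there were 377 and 563 sites. Single libraries left out were added after seeing the data for shared sites, loci, promoters, patterns and indexes, as were all Hox alternatives.

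Deviations of same-numbered libraries correlated by −0.103, −0.0140 and 0.0337 over 7309 sites, and those of differently numbered libraries by −0.118 to 0.125. With 3 libraries per state these values cannot show whether same-numbered libraries were prepared together. A replicate block leaves each difference as it is, with a smallest p of 0.25. In it the promoter difference was −3.66 (exact p = 0.25), the CDX difference −3.48, the peak-number difference 0.378 (exact p = 0.75) and the Jaccard difference 0.0765 (exact p = 0.25).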

Other observations

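The partners of β-catenin divided the sites unequally when all replicates were required. A LEF1 peak in 3 of 3 CEpiLC and 0 of 3 SOX2-OFF libraries occurred at 97 of the 299 CEpiLC sites, and the mirror pattern (3 of 3 in SOX2-OFF, 0 of 3 in CEpiLC) at 2 of the 203 SOX2-OFF sites. For TCF7L1 the counts were 11 of 299 and 26 of 203, for TCF7L2 19 of 299 and 26 of 203, and for SOX2 48 of 299 and 10 of 203. These counts rest on lists of different lengths for each protein, and differences between proteins were not tested.

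Sites shared by all 6 libraries differed in how far they reached into the high-SOX2 states. Of the 246 ranked ahead in SOX2-OFF, 148 had a peak in all 3 SOX2-ON libraries and 117 in all 3 naive libraries. Of the 178 ranked ahead in CEpiLC, 86 and 53 did, and of all 1202 shared sites, 616 and 460 did. These differences were not tested. Promoters made up 3.25% of the set ahead in SOX2-OFF and 15.7% of the set ahead in CEpiLC, beside 7.65% of all shared sites. TCF patterns lay in 75.2% and 62.4% of these sets, beside 69.2% of all shared sites.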
